A study of Rattus norvegicus with 8 samples.

Results

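The genes described here are 9 apoptosis genes, the death receptors Fas and Tnfrsf1a and the genes Fadd, Casp8, Cflar, Bid, Bcl2, Bcl2l1 and Bax. They were chosen by name, and every probe set of the array whose annotation gives exactly 1 of these symbols was taken. This gave 15 of the 31099 probe sets, for 8 of the 9 genes, among 14218 genes that the annotation names alone on a probe set. The probe set that carries Bax lists a further symbol as well, so Bax is not reported. Of the 15 probe sets, 13 were bright enough to be tested, among 21729 tested in all. A probe set of Fas (1369900_at) and one of Bid (1369683_at) were too dim, and their values are given without a test.

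The series asked how gene expression in the rat prostate differs between descendants of pregnant Sprague-Dawley females injected with vinclozolin, a fungicide with anti-androgenic metabolites, and descendants of control females. RNA of the F3 generation, reached by sequential breeding, was hybridised to 8 arrays in 4 groups of 2. The groups were vinclozolin lineage whole ventral prostate at 180 days, control lineage whole ventral prostate at 180 days, vinclozolin lineage prostate epithelium at 45 days and control lineage prostate epithelium at 45 days. Whole prostate RNA was pooled from several animals per sample, and epithelial RNA from 11 animals per sample. Injections ran from day 8 to day 14 of gestation, into the peritoneum. The protocol text attached to all 8 samples names the vehicle, DMSO, only, so the vinclozolin groups rest on the sample titles. The labels do not say whether the 2 pools of a group came from separate litters, so the p-values measure the spread between pools, which may be technical in part.

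Fas is a receptor of the tumour necrosis factor family that, once bound by its ligand, gathers the adaptor Fadd and the initiator caspase Casp8 into a complex at the membrane. Cflar, also known as FLIP, competes with Casp8 in that complex, and active Casp8 can cut Bid, which carries the signal to the mitochondrion, where Bax and its relatives open the outer membrane and Bcl2 and Bcl2l1 hold it closed. In the ventral prostate of the rat, epithelial cells are known to die by apoptosis when androgen is withdrawn.

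The upstream sequences of Fas and Tnfrsf1a are shown because they are the death receptors among the members and gave opposite signs in whole prostate, though neither change was called. Any link between these sequences and the expression values was not tested. RefSeq entries on build GRCr8 were found for 7 of the 9 genes. Each line gives the 250 bases before the annotated start, 5′ to 3′, on the plus strand, at chr1:241211905-241212154 for Fas and chr4:159836869-159837118 for Tnfrsf1a. Capitals mark matches to the 4 motifs searched on both strands, which were the GC box GGGCGG, the TATA box TATAAA, the CCAAT box CCAAT and the AP-1 element TGANTCA, and none of the matches overlapped.
Fas: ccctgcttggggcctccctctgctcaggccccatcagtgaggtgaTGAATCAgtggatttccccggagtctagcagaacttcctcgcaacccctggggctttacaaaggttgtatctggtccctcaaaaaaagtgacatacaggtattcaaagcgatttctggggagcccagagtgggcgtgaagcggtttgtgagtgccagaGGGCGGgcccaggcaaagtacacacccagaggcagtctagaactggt
Tnfrsf1a: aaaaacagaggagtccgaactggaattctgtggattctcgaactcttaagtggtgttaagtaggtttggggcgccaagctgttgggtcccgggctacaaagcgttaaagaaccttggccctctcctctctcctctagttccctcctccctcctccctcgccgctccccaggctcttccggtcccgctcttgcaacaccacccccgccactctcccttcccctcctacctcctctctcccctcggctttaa
The Fas sequence held 1 GC box, 47 bases before the start, and 1 AP-1 element, 205 bases before it. The Tnfrsf1a sequence held no match to any of the 4. Among 33465 rat sequences of the same length, 30.5% held the GC box, 12.9% the TATA box, 34% the CCAAT box and 6.34% the AP-1 element.

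Median intensities were 28.7 to 31.5 on the whole prostate arrays and 36.25 to 38.7 on the epithelium arrays. The share of probe sets under an intensity of 16 was 32.7% to 36.7% and 28.3% to 30.8%. The ratio of the 3′ to the 5′ actin control probe sets, a measure of RNA integrity, was 3.14 to 3.37 in vinclozolin lineage whole prostate, 3.74 to 3.98 in control lineage whole prostate, 2.26 to 2.35 in vinclozolin lineage epithelium and 2.27 to 2.57 in control lineage epithelium. Marker genes of luminal epithelium were bright on every array, and 5 of 7 were measured. Their summed intensity was 24080 to 24762 in vinclozolin lineage and 21980 to 22035 in control lineage whole prostate, and 25976 to 26422 and 25699 to 26208 in the epithelium of the same lineages. The preparation labelled epithelium also held smooth muscle and fibroblast RNA. The 5 smooth muscle markers summed to 1700 to 2213 on the whole prostate arrays and to 11141 to 12838 on the epithelium arrays, and the 5 fibroblast markers to 1820 to 2167 and 6725 to 7292.

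No member was called in the comparison of the vinclozolin lineage with the control lineage, in either preparation. Changes are differences of normalised log2(intensity + 16), and a probe set is called where its adjusted p over all probe sets tested, from limma's linear model, is under 0.05. In whole prostate 0 of 13 member probe sets were called by limma, and 1 (7.69%), Fas, had an unadjusted p under 0.05. Over all probe sets tested, 1.74% were called and 18.7% had an unadjusted p under 0.05. In epithelium 0 of 13 were called by limma and 3 (23.1%) had an unadjusted p under 0.05, in Fas, Cflar and Bcl2l1, while 0.0092% of all probe sets were called and 11.4% had an unadjusted p under 0.05. For the difference between the whole prostate and the epithelial effect 0 of 13 were called by limma and 1 (7.69%) had an unadjusted p under 0.05, against 0.29% and 13.5% of all probe sets. The median change over the 8 genes, each by its brightest probe set, was 0.01 on the log2 scale in whole prostate and -0.16 in epithelium, against -0.009 and -0.002 over all probe sets.

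**Figure D1:**
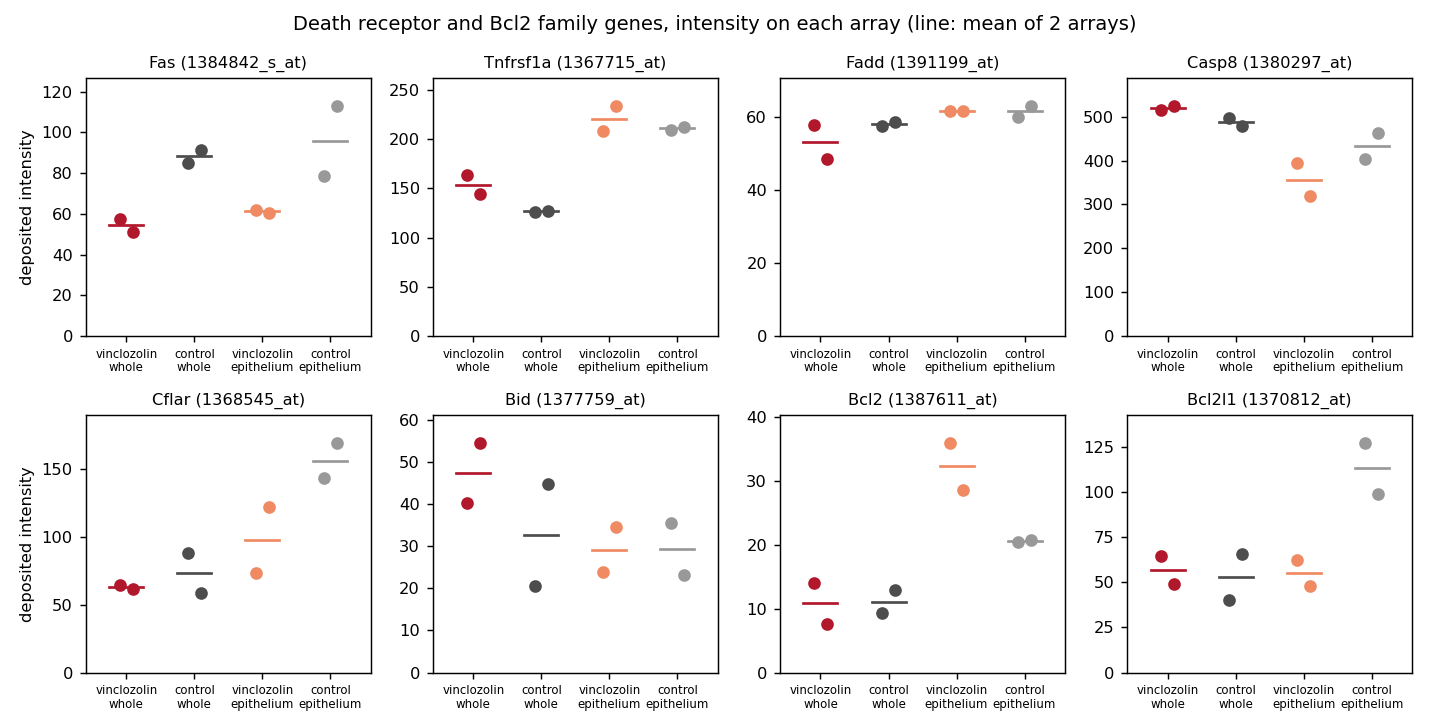
Deposited intensity of the brightest probe set of each of the 8 genes on each array, by group. Each point is 1 array (a pool of animals) and each line the mean of 2 arrays. Axes start at 0. Fas lies lower on both vinclozolin arrays than on both control arrays in each preparation.

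Fas, the receptor, was measured best by probe set 1384842_s_at. Its deposited intensity was 57.3 and 51.3 in vinclozolin lineage whole prostate, against 85.1 and 91.3 in control lineage whole prostate. In epithelium it was 62.1 and 60.3 in the vinclozolin lineage, against 78.8 and 113.0 in the control lineage. Both vinclozolin arrays lay under both control arrays in each preparation, and Fas was the only member probe set of 13 (7.69%) for which this held in both, a pattern that 6.9% of all probe sets tested also had. The log2 change was -0.51 ± 0.17 (SE, n = 2 pools per group, 1.42-fold lower, 95% interval -0.91 to -0.10, adjusted p = 0.19 in limma) in whole prostate. It was -0.58 ± 0.17 (95% interval -0.99 to -0.18, adjusted p = 0.31) in epithelium, so neither passed the threshold. The 2 effects differed by 0.08 ± 0.24 (95% interval -0.49 to 0.65, adjusted p = 0.92). Taken as 1 value, a test added after the data had been seen, the mean of both effects was -0.55 ± 0.12 with an adjusted p of 0.10 in limma, a test in which 0 of 13 members and 0.801% of all probe sets were called and 2 members (15.4%) had an unadjusted p under 0.05, as did 17.6% of all probe sets. Exchanging lineage labels within each preparation gave an exact two-sided permutation p of 0.056, which is the smallest that the 36 arrangements can give. Any probe set with this order of arrays in both preparations gives that value, so it adds no support beyond the order itself.

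The epithelial size of the Fas difference rested on the spread of its control arrays. Leaving out 1 array at a time gave log2 changes between -0.82 and -0.35 in epithelium and between -0.57 and -0.45 in whole prostate, and no setting tried made either a call. Of all the marker lists, only the smooth muscle, macrophage and skeletal muscle sums stood in the same order as Fas within each preparation. The smooth muscle markers summed to 1700 to 1840 in vinclozolin lineage and 2178 to 2213 in control lineage whole prostate. In the epithelium of these lineages they summed to 11141 to 11445 and 12696 to 12838. These sums were thus far higher than in whole prostate, while Fas was nearly level between preparations. By gene, 4 of 5 had a negative log2 change in whole prostate and 1 a positive one (median -0.32). All 5 were negative in epithelium (median -0.13), and none was called in either preparation. The sums of the 9 macrophage markers were 4400 to 5102 and 6234 to 6712 in whole prostate and 5853 to 6018 and 7210 to 8757 in epithelium. Gene by gene this list ran the other way in whole prostate, where 6 of 9 had a positive log2 change (median 0.45) and 2 were called higher, and in epithelium 8 of 9 were negative. The 6 skeletal muscle markers, of which all 5 tested had negative changes in both preparations, summed to 1533 to 1546 and 2424 to 2665 in whole prostate, and to 6803 to 6902 and 7923 to 8022 in epithelium. Their part in the Fas values was not tested. In RNA of pooled tissue, fewer cells of a type and less RNA per cell cannot be told apart.

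The other Fas probe sets did not show this order. Probe set 1397221_s_at read 16.5 and 15.5 in vinclozolin lineage and 22.9 and 10.3 in control lineage whole prostate, and 15.1 and 14.1 against 6.1 and 24.0 in vinclozolin and control lineage epithelium. The vinclozolin arrays lay between the control arrays each time, and the log2 changes were -0.07 ± 0.31 (adjusted p = 0.93) and -0.01 ± 0.31 (adjusted p = 0.99). Probe set 1369900_at, left untested, read 1.0 and 1.3 in vinclozolin lineage whole prostate, 1.8 and 1.0 in control lineage whole prostate, 23.6 and 3.2 in vinclozolin lineage epithelium and 4.5 and 13.2 in control lineage epithelium. Over the 8 arrays the log2 values of the 3 Fas probe sets correlated pairwise with r = 0.05, -0.01 and 0.34, so the Fas result stands on a single probe set.

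**Figure D2:**
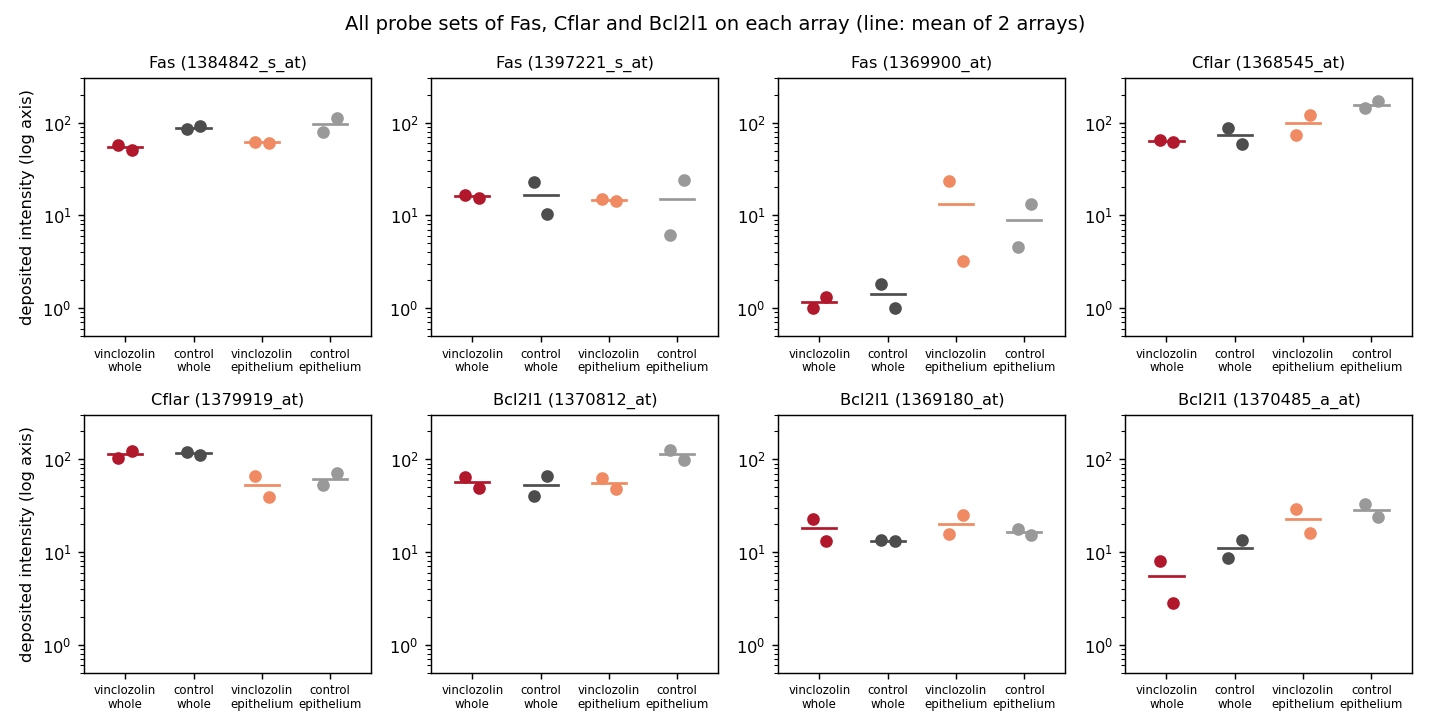
Deposited intensity (log axis) of every probe set of Fas, Cflar and Bcl2l1 on each array, by group, with a line at the mean of 2 arrays. The lower values on vinclozolin arrays appear in Fas 1384842_s_at and in neither of the other Fas probe sets, and the 2 Cflar probe sets stand in opposite order between preparations.

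Tnfrsf1a, the main receptor for tumour necrosis factor and able to signal through the same caspase, read 163.6 and 143.8 in vinclozolin lineage whole prostate, against 125.9 and 127.1 in control lineage whole prostate. In epithelium it read 207.9 and 233.7 in the vinclozolin lineage, against 209.7 and 212.0 in the control lineage. The whole prostate arrays did not overlap and the epithelial arrays did. The log2 changes were 0.27 ± 0.12 (95% interval -0.01 to 0.55, adjusted p = 0.29) and 0.06 ± 0.12 (95% interval -0.22 to 0.34, adjusted p = 0.88).

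The adaptor and the initiator caspase were nearly level between lineages. Fadd read 57.9 and 48.6 in vinclozolin lineage and 57.5 and 58.7 in control lineage whole prostate, and 61.8 and 61.6 in vinclozolin lineage and 60.2 and 63.1 in control lineage epithelium. The groups overlapped in both preparations, with log2 changes of -0.08 ± 0.12 (95% interval -0.36 to 0.19) and -0.02 ± 0.12 (95% interval -0.30 to 0.25). Casp8 probe set 1380297_at read 515.4 and 524.5 in vinclozolin lineage and 497.0 and 479.4 in control lineage whole prostate, and 393.6 and 319.3 against 403.2 and 461.9 in vinclozolin and control lineage epithelium. The arrays were apart in both preparations but in opposite order, with log2 changes of 0.11 ± 0.14 (adjusted p = 0.74) and -0.27 ± 0.14 (adjusted p = 0.54). The second Casp8 probe set, 1369262_at, gave 0.08 ± 0.16 and -0.21 ± 0.16, with overlapping groups in both preparations. The log2 values of the 2 Casp8 probe sets correlated with r = -0.40 over the 8 arrays.

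On Cflar, the brake on Casp8, probe set 1368545_at read 64.8 and 62.0 in vinclozolin lineage whole prostate, against 88.3 and 58.7 in control lineage whole prostate. In epithelium it read 73.7 and 122.2 in the vinclozolin lineage, against 143.3 and 169.7 in the control lineage. The whole prostate arrays overlapped, and the epithelial vinclozolin arrays lay lower, with log2 changes of -0.12 ± 0.26 (adjusted p = 0.85) and -0.69 ± 0.26 (95% interval -1.30 to -0.08, adjusted p = 0.40). Probe set 1379919_at read 104.4 and 123.3 in vinclozolin lineage and 119.8 and 112.3 in control lineage whole prostate, and 66.2 and 39.1 against 52.4 and 70.5 in vinclozolin and control lineage epithelium. Groups overlapped in both preparations, with changes of 0.00 ± 0.23 and -0.21 ± 0.23. The log2 values of the 2 Cflar probe sets correlated with r = -0.65 over the 8 arrays.

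Bid, the link from Casp8 to the mitochondrion, read 40.1 and 54.5 in vinclozolin lineage and 20.5 and 44.6 in control lineage whole prostate on probe set 1377759_at. It read 23.9 and 34.4 in vinclozolin lineage and 35.4 and 23.2 in control lineage epithelium. The groups overlapped in both preparations, with log2 changes of 0.40 ± 0.26 (95% interval -0.23 to 1.03, adjusted p = 0.47) and -0.04 ± 0.26 (adjusted p = 0.97). The untested probe set 1369683_at read 13.9 and 7.6 in vinclozolin lineage and 2.0 and 0.8 in control lineage whole prostate, all under 16, and 2.1 to 4.9 in epithelium of either lineage.

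Among the survival genes at the mitochondrion, Bcl2l1, which encodes Bcl-xL, had the lowest unadjusted p of the members in epithelium. Probe set 1370812_at read 62.5 and 47.9 in vinclozolin lineage epithelium, against 127.2 and 99.0 in control lineage epithelium. In whole prostate it read 64.6 and 48.9 in the vinclozolin lineage, against 40.1 and 65.6 in the control lineage. The epithelial arrays were well apart and the whole prostate arrays overlapped. The log2 change in epithelium was -0.95 ± 0.22 (1.94-fold lower, 95% interval -1.49 to -0.42, adjusted p = 0.26 in limma), and in whole prostate 0.10 ± 0.22 (adjusted p = 0.86). The difference between the effects was 1.05 ± 0.32 (95% interval 0.30 to 1.80, adjusted p = 0.25), so it did not pass over all probe sets tested. The other Bcl2l1 probe sets gave smaller epithelial values, -0.24 ± 0.22 for 1370485_a_at and 0.10 ± 0.20 for 1369180_at. Over the 8 arrays the log2 values of 1370812_at correlated with r = 0.61 with 1370485_a_at and -0.20 with 1369180_at. The latter pair correlated with r = -0.22.

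Bcl2 itself was dim in whole prostate, at 14.1 and 7.6 in the vinclozolin lineage and 9.3 and 12.9 in the control lineage, all under 16. In epithelium it read 36.0 and 28.6 in the vinclozolin lineage, against 20.5 and 20.7 in the control lineage. The epithelial arrays did not overlap and the vinclozolin arrays lay higher, the only such member there, with a log2 change of 0.35 ± 0.17 (95% interval -0.06 to 0.77, adjusted p = 0.50). In whole prostate the change was -0.09 ± 0.17 (adjusted p = 0.83). Counting all 13 probe sets, arrays of the 2 lineages did not overlap for 4 in whole prostate, 2 higher and 2 lower, where 53.9% of all probe sets did not overlap, 26.1% higher and 27.8% lower. They did not overlap for 5 in epithelium, 1 higher and 4 lower, where 39.4% of all probe sets did not, 19.7% higher and 19.7% lower.

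**Figure D3:**
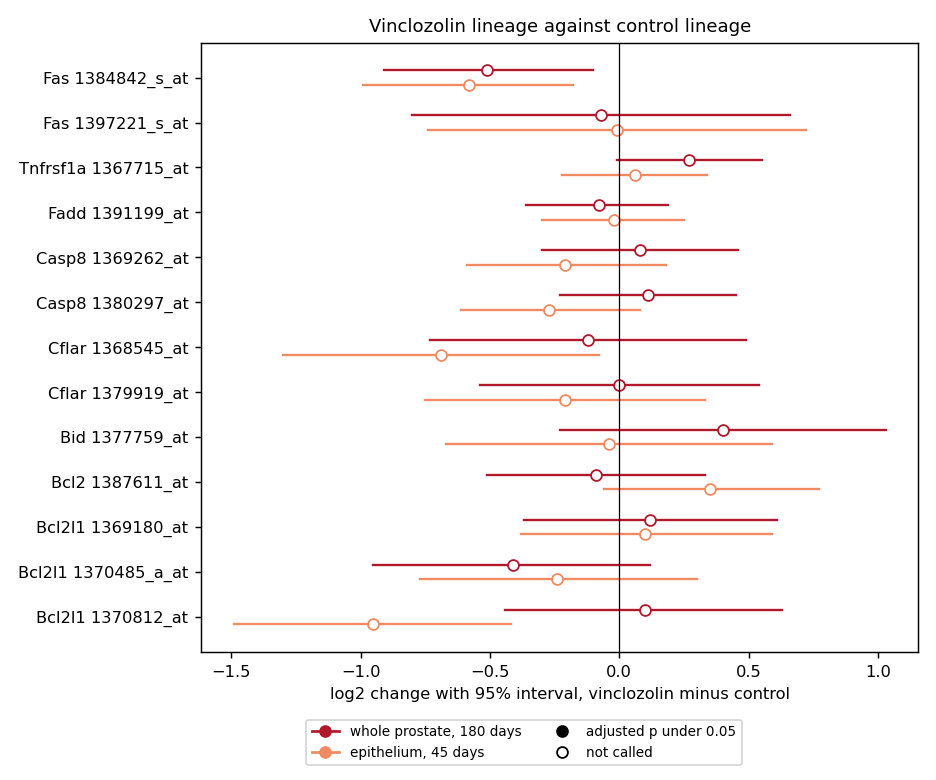
Log2 change between vinclozolin and control lineage for the 13 member probe sets tested, in whole prostate and in epithelium, with 95% intervals from limma. Open points were not called, and none was called. Fas 1384842_s_at lies under 0 in both preparations, and Bcl2l1 1370812_at in epithelium lies lowest.

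Between preparations the members differed more. Whole prostate at 180 days was set against epithelium at 45 days within each lineage, and since age and preparation changed together, the 2 cannot be told apart. In the vinclozolin lineage 3 of 13 member probe sets (23.1%) were called, where 27.4% of all probe sets were. In the control lineage 4 of 13 (30.8%) were called, where 27.8% of all were, so the members' share was near the background in both. Centring each array on its median in place of quantile normalisation gave a median change of all probe sets of 0.17 in place of 0.057 in the vinclozolin lineage and of 0.20 in place of 0.055 in the control lineage. With it, the share of calls that were higher in whole prostate was 67.5% in place of 52.1% in the vinclozolin lineage, and 71.1% in place of 53.7% in the control lineage.

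Tnfrsf1a was lower in whole prostate in both lineages, with the per-array values given above. The log2 change was -0.49 ± 0.12 (adjusted p = 0.024 in limma) in the vinclozolin lineage and -0.70 ± 0.12 (adjusted p = 0.0072) in the control lineage. All 4 whole prostate arrays lay under all 4 epithelium arrays. The vinclozolin lineage call was lost with median centring (-0.27, adjusted p = 0.15) and when any of 5 of the 8 arrays was left out (adjusted p up to 0.11), and the control lineage call held in every setting tried.

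The 2 Cflar probe sets changed in opposite directions between preparations. Probe set 1368545_at gave a log2 change of -0.35 ± 0.26 (adjusted p = 0.35) in the vinclozolin lineage and was called lower in whole prostate of the control lineage, at -0.92 ± 0.26 (adjusted p = 0.039). Probe set 1379919_at was called higher in whole prostate of both, at 1.09 ± 0.23 (adjusted p = 0.015) in the vinclozolin lineage and 0.87 ± 0.23 (adjusted p = 0.032) in the control lineage. No single direction can therefore be given for Cflar. Each of these calls was lost when some single arrays were left out, with an adjusted p up to 0.19 for 1368545_at and up to 0.14 for 1379919_at.

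Of the survival genes, Bcl2l1 probe set 1370812_at gave 0.23 ± 0.22 (adjusted p = 0.48) in the vinclozolin lineage and was called lower in whole prostate of the control lineage, at -0.82 ± 0.22 (adjusted p = 0.037). The other Bcl2l1 probe sets were not called in either lineage. In the vinclozolin and control lineage, 1370485_a_at gave -0.68 ± 0.22 (adjusted p = 0.066 in limma) and -0.50 ± 0.22 (adjusted p = 0.15). Probe set 1369180_at gave 0.07 ± 0.20 and 0.05 ± 0.20. Bcl2 was called lower in whole prostate of the vinclozolin lineage, at -0.68 ± 0.17 (adjusted p = 0.031), and gave -0.24 ± 0.17 (adjusted p = 0.36) in the control lineage. Both calls were lost when single arrays were left out, with an adjusted p up to 0.18 for Bcl2l1 and 0.13 for Bcl2. The Bcl2 value also moved with the pseudocount, to -1.26 with 1 and -0.28 with 64, neither called. Casp8 1380297_at gave 0.44 ± 0.14 (adjusted p = 0.065) in the vinclozolin lineage, a call with the deposited scaling (0.53, adjusted p = 0.031), and 0.06 ± 0.14 in the control lineage. Casp8 1369262_at had the opposite sign, at -0.06 ± 0.16 (adjusted p = 0.81 in limma) and -0.35 ± 0.16 (adjusted p = 0.15) in these lineages. No single direction can therefore be given for Casp8 either. Fas 1384842_s_at was nearly level between preparations, at 0.06 ± 0.17 (95% interval -0.34 to 0.47) in the vinclozolin lineage and -0.01 ± 0.17 (95% interval -0.42 to 0.39) in the control lineage, and the sign of each turned with the scaling used. The markers moved with these differences too. Of the genes tested, 5 of 5 smooth muscle, 4 of 5 fibroblast and 3 of 4 basal markers were called lower in whole prostate in each lineage, the basal ones summing to 433 to 546 on the whole prostate arrays and 2492 to 2650 on the epithelium arrays. Skeletal muscle markers were mixed, with 3 of 5 called lower in each lineage and 1 called higher in the vinclozolin and 2 in the control lineage. Adipocyte markers, 5 of 5 measured, were brighter in whole prostate, at 2100 to 2408 and 156 to 234. Their part in the member values was not tested.

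**Figure D4:**
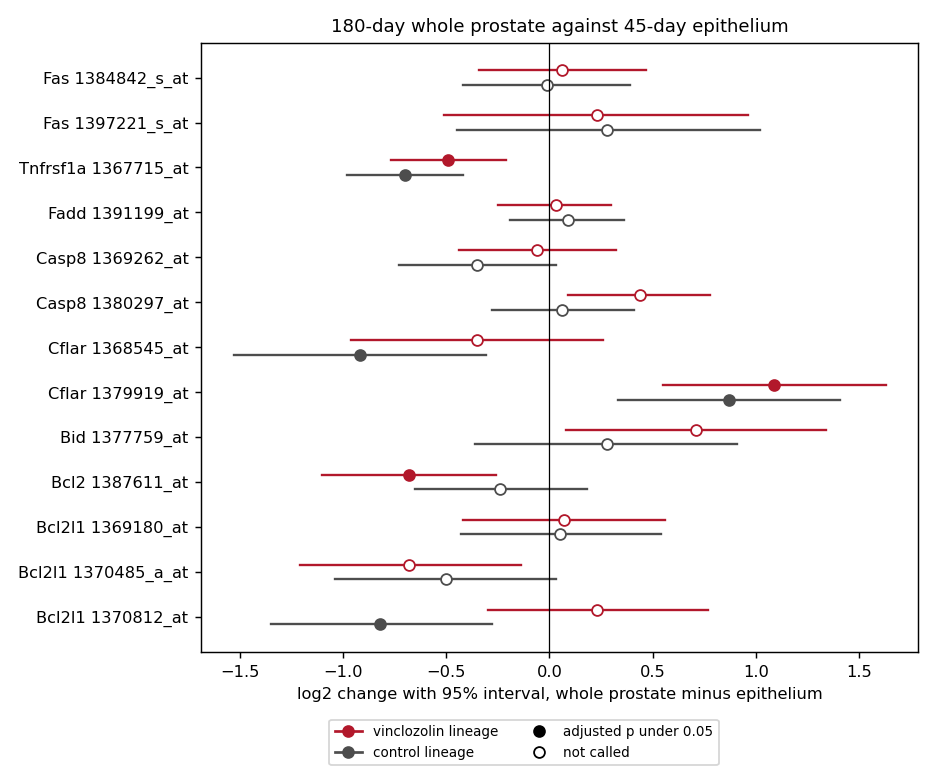
Log2 change between 180-day whole prostate and 45-day epithelium for the 13 member probe sets tested, within the vinclozolin lineage and within the control lineage, with 95% intervals from limma. Filled points were called. Tnfrsf1a is called lower and Cflar 1379919_at higher in both lineages.

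Other apoptosis genes were read from 10 lists holding 78 further genes, of which 67 were on the array and 59 were tested by their brightest probe set. In whole prostate 3 of 59 were called higher by limma and 0 lower in the vinclozolin lineage, where 0.819% of all probe sets were called higher and 0.925% lower. By probe set, 4 of 81 (4.94%) were called, against 1.74% of all. The 59 stand for the brightest probe sets, while all probe sets include dimmer ones, and the lists were chosen with earlier results known. The median of the 59 genes was 0.10, and 11 of the 59 had an unadjusted p under 0.05. Counting all 81 tested probe sets of these lists, 22.2% did, against 18.7% of all probe sets. In epithelium 0 of 59 were called by limma, with a median of -0.05, and 13 of the 59 had an unadjusted p under 0.05. Among the 81 probe sets 19.8% did, against 11.4% of all probe sets. For the difference between the effects 0 of 59 were called by limma and 14 of the 59 had an unadjusted p under 0.05. Among the 81 probe sets 23.5% did, against 13.5% of all probe sets.

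The called genes were a survival gene and a pair of p53 targets. Bcl2a1, a survival relative of Bcl2 known from blood cells, read 53.3 and 66.1 in vinclozolin lineage whole prostate, against 11.0 and 12.2 in control lineage whole prostate. It rose by 1.42 ± 0.18 on the log2 scale (adjusted p = 0.021), while epithelium read 28.8 and 45.3 in the vinclozolin lineage and 33.6 and 36.6 in the control lineage. The difference between the effects was 1.42 ± 0.26 with an adjusted p of 0.11. The 4 pan-leukocyte markers summed to 467 to 525 in vinclozolin lineage and 236 to 241 in control lineage whole prostate. In epithelium of these lineages they summed to 70 to 84 and 93 to 100. In the control lineage Bcl2a1 was thus higher in epithelium, where the pan-leukocyte sum was lower. The 10 T and NK cell markers summed to 380 to 392 and 187 to 236 in whole prostate, with Cd8a, Nkg7, Gzmb and Prf1 averaging under 16. Macrophage marker sums were lower in vinclozolin lineage whole prostate, at 4400 to 5102 against 6234 to 6712, though 6 of 9 genes had positive changes. Their part in the Bcl2a1 value was not tested.

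Cdkn1a, the p21 inhibitor of the cell cycle, read 257.4 and 222.6 in vinclozolin lineage whole prostate, against 132.8 and 113.2 in control lineage whole prostate, on probe set 1388674_at. It rose by 0.87 ± 0.13 (adjusted p = 0.029), and its other probe set gave 0.91 ± 0.20 (adjusted p = 0.082). Gadd45a, a growth arrest gene induced by DNA damage, read 366.6 and 391.3 in vinclozolin lineage and 227.7 and 201.1 in control lineage whole prostate, and rose by 0.78 ± 0.12 (adjusted p = 0.040). In epithelium Gadd45a gave -0.43 ± 0.12 (adjusted p = 0.31), and the difference between the effects was 1.21 ± 0.18 (adjusted p = 0.068). Sesn2, a further p53 target, was called lower on the dim probe set 1396901_at (-1.04 ± 0.18, adjusted p = 0.048), while its brighter probe set 1391607_at gave 0.68 ± 0.16 (adjusted p = 0.093), so no direction can be given. The calls of Cdkn1a, Gadd45a and Sesn2 were lost when any 1 of the 8 arrays was left out (adjusted p of 0.056 to 0.23), and that of Bcl2a1 when any 1 of the 4 whole prostate arrays was (up to 0.18).

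By list, no caspase was called in whole prostate. All 6 other caspases had positive values there by their brightest probe sets, from 0.05 to 0.43 with a median of 0.21. Over all probe sets tested, 48.7% were positive. Casp9, the caspase activated at the apoptosome, stood highest among the 6 at 0.43 ± 0.14 (adjusted p = 0.18). Dimmer caspase probe sets were mixed. Casp2 1367891_a_at had log2 means of 5.22 in vinclozolin and 5.34 in control lineage whole prostate, Casp9 1388083_a_at 5.23 and 5.24, and Casp9 1370737_at 5.24 and 4.67. The p53 targets had a whole prostate median of 0.27 over 11 genes, the inhibitors of apoptosis 0.18 over 4, the caspase substrates 0.20 over 3, the death ligands 0.13 over 4, the apoptosome and mitochondrial genes 0.07 over 5 and the other death receptors 0.05 over 2. The other effectors of the Bcl2 family had a median of 0.01 over 8, the adaptors and regulators -0.08 over 13 and the other survival genes -0.32 over 3. In epithelium the list medians ran from -0.24, in the other survival genes, to 0.17, in the inhibitors of apoptosis, with 0.10 in the other caspases and 0.08 in the p53 targets. The genes of lowest p in epithelium among these lists included Plk2, a kinase induced by p53, at 0.45, and Casp8ap2, a protein that binds Casp8, at -0.59 ± 0.14 (adjusted p = 0.26).

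**Figure D5:**
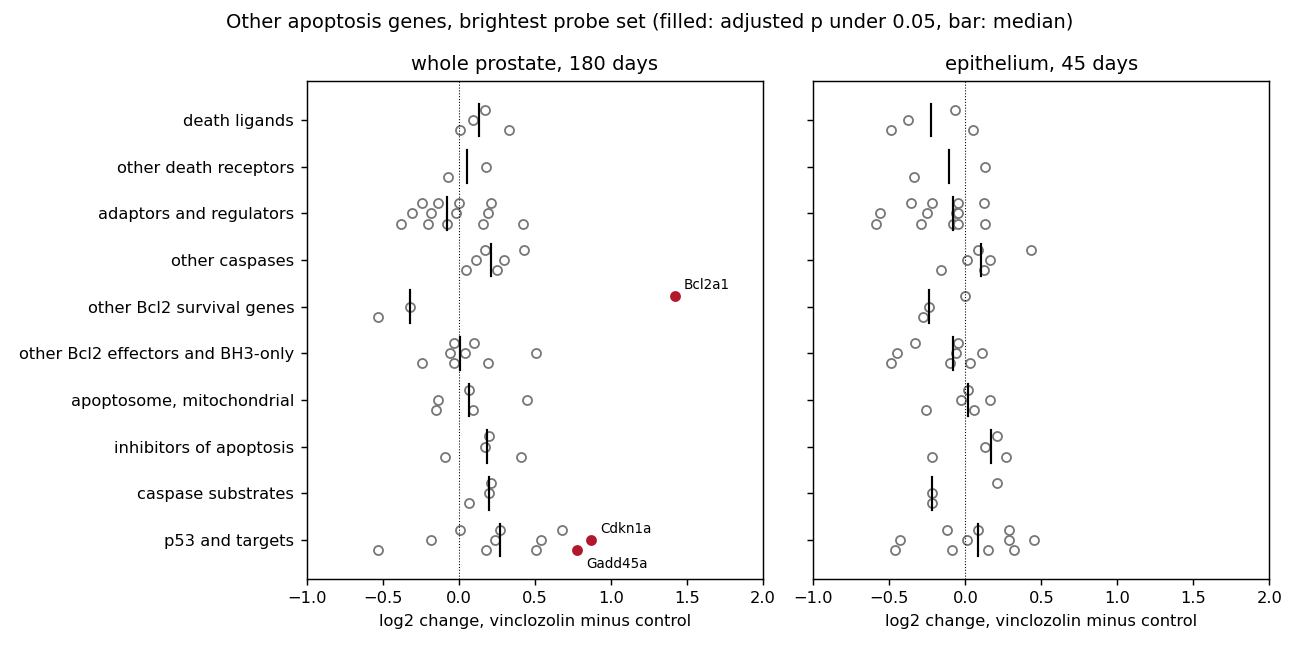
Log2 change between vinclozolin and control lineage for the 59 other apoptosis genes tested, each by its brightest probe set, grouped into the 10 lists, in whole prostate and in epithelium. Filled points were called and bars are list medians. Bcl2a1, Cdkn1a and Gadd45a are the called genes, all in whole prostate.

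Between preparations, 10 of the 59 genes were called higher and 10 lower in whole prostate of the vinclozolin lineage, where 14.2% and 13.1% of all probe sets were. In the control lineage 8 were called higher and 15 lower, where 15% and 12.9% of all were. Only some of these genes are named here. Tnf, the ligand of Tnfrsf1a, was called lower in whole prostate of both lineages on probe set 1391384_at. The log2 changes were -2.04 ± 0.25 in the vinclozolin lineage and -2.71 ± 0.25 in the control lineage. This probe set was dim in whole prostate, with mean intensities of 8.95 and 5.15 in these lineages, so the sizes depend on the pseudocount. Probe set 1387691_at was called lower in the control lineage only. Its log2 means were 4.55 in whole prostate and 5.2 in epithelium of the vinclozolin lineage, and 4.33 and 5.89 in the control lineage. The receptor Tnfrsf12a gave -1.81 ± 0.12 and -2.34 ± 0.12 in these lineages, and the inhibitor of apoptosis Birc3, a target of the NF-kappaB factor, -1.80 ± 0.17 and -2.42 ± 0.17, all called. Gadd45a was also called lower in both, at -1.66 ± 0.12 in the vinclozolin and -2.87 ± 0.12 in the control lineage. Casp1, the inflammatory caspase, was called higher in whole prostate at 0.67 ± 0.11 in the vinclozolin lineage and 0.86 ± 0.11 in the control lineage. Apaf1, the scaffold of the apoptosome, was also called higher in both on probe set 1369197_at, at 0.56 ± 0.11 and 0.55 ± 0.11. Its other probe set, 1369198_at, was called in neither. That probe set had log2 means of 5.91 in whole prostate and 5.20 in epithelium of the vinclozolin lineage, and 5.61 and 5.63 in the control lineage. Bcl2a1 was called in opposite directions, at 0.75 ± 0.18 in the vinclozolin lineage and -0.67 ± 0.18 in the control lineage. Both Bcl2a1 calls were lost when single arrays were left out, 5 of 8 in the vinclozolin lineage (adjusted p up to 0.12) and 6 of 8 in the control lineage (up to 0.15). The first was also lost with the deposited scaling (0.53, adjusted p = 0.066) and with the groups alone (adjusted p = 0.081), and the second with a pseudocount of 64 (-0.30, adjusted p = 0.061), without the filter (adjusted p = 0.06) and with a trended robust prior (adjusted p = 0.056). The Apaf1 calls were lost when any of 2 arrays in the vinclozolin lineage or 3 in the control lineage was left out, with an adjusted p up to 0.066 and 0.079.

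The named genes whose log2 values over the 8 arrays were most like Fas 1384842_s_at were Jade1 (Pearson r = 0.973), Pgap3 (0.972), Klhl13 (0.969), Mapk1ip1l (0.954) and Casp8ap2 on probe set 1385639_at (0.947). These values are a description of 8 arrays that share their groups. None of the 5 was called between lineages, and their log2 changes were -0.53 to -0.37 in whole prostate and -0.38 to -0.27 in epithelium. Casp8ap2 gave -0.53 ± 0.18 in whole prostate and -0.38 ± 0.18 in epithelium on that probe set, and its brighter probe set 1393803_at gave 0.00 ± 0.14 and -0.59 ± 0.14.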

How the data were processed

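Deposited probe set intensities of 8 Affymetrix rat arrays were used; per the labels, each holds biotin-labelled RNA of pooled animals. The software, scaling and annotation that made the authors' intensities are not given in the sources used here; trimmed means of 125 on each array show that the arrays had been scaled. Gene names came from the platform annotation: 20832 probe sets had 1 symbol, 436 several and 9780 none, and 57 were controls. Values were taken as log2(intensity + 16) and quantile normalised. The dimmest 30% of probe sets by mean were left out, and the added 16 makes fold changes of dim genes too small. limma 3.58.1 in R 4.3.3 fitted 1 mean per group over all 8 arrays, with 4 residual degrees of freedom, Benjamini-Hochberg adjustment over all 21729 probe sets and calls at an adjusted p under 0.05. The number of arrays limits the precision. The fit was tested on simulated data. Replicate numbers did not pair arrays: deviations from the group means of arrays of the same number correlated with r = 0.00 and 0.03 in the 2 preparations. Promoter sequences were read from RefSeq (GRCr8). All member probe sets are named. From the other lists, candidates were every called gene and otherwise the one with the lowest p, at most 3 per list and comparison. Not every candidate is named in the text. Members and lists were chosen with earlier results of these data known. Alternatives covered scaling, pseudocount, filter, prior, array weights, replicate block, groups fitted alone and each array left out.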

Additional observations from a re-analysis of the deposited data

How the results depend on the processing

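No member was called between lineages under any alternative, the lowest adjusted p over them being 0.062. Of 7 member calls between preparations, 2 to 7 remained calls under each alternative, 2 when a control whole prostate array was left out. Counts of calls over all probe sets moved more. In whole prostate 379 were called between lineages, against 235 with a pseudocount of 1, 1133 with 64, 200 without the filter, 965 with a filter at the 50th percentile, 1814 with a trended robust prior, 871 with array weights, 65 with the groups alone and 26 to 220 with 1 array left out. In epithelium 2 were called, against 1 with median centring, 0 with a pseudocount of 1, without the filter, with array weights, with the groups alone and with any 1 array left out, 66 with a pseudocount of 64, 23 with the 50th percentile filter and 205 with the trended prior. The difference between effects had 63 calls, against 40 with a pseudocount of 1, 262 with 64, 32 without the filter, 169 with the 50th percentile filter, 540 with the trended prior and 5 to 18 with 1 array left out. Between preparations 5946 were called in the vinclozolin lineage, 3931 with the groups alone and 3366 to 6024 with 1 array left out, and 6051 in the control lineage, 2661 to 5751 with 1 array left out. With the replicate number as a block the counts were 32 in whole prostate, 0 in epithelium, 5 for the difference, and 4478 and 4537 between preparations in the vinclozolin and control lineage; the numbers do not pair the arrays. Median centring gave 36.1% of lineage calls higher in whole prostate in place of 47%, and 0% in place of 50% in epithelium.

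Some uncalled members changed sign, and the cause was not tested. With the deposited scaling Bcl2l1 1369180_at read -0.09 and -0.15 between preparations in the vinclozolin and control lineage and Fadd -0.17 and -0.07, while Fas 1384842_s_at read -0.14 in the vinclozolin lineage. Between lineages the same scaling gave -0.03 for Cflar 1379919_at and 0.00 for Fas 1397221_s_at in whole prostate, 0.00 for Fadd and 0.04 for Fas 1397221_s_at in epithelium, and -0.05 for the difference in Fas 1384842_s_at. Median centring gave 0.00 for Casp8 1369262_at and -0.08 for Cflar 1379919_at in whole prostate between lineages, 0.01 for Fas 1397221_s_at in epithelium, -0.07 for the difference in Fas 1384842_s_at, and between preparations 0.17 for Casp8 1369262_at in the vinclozolin and 0.15 for Fas 1384842_s_at in the control lineage. A pseudocount of 1 gave 0.13 for Fas 1397221_s_at in epithelium.

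With 1 array left out, sign changes gave these ranges. In whole prostate between lineages they were -0.31 to 0.13 for Bcl2, -0.13 to 0.38 for Bcl2l1 1369180_at, -0.14 to 0.33 for Bcl2l1 1370812_at, -0.01 to 0.18 for Casp8 1369262_at, -0.35 to 0.11 for Cflar 1368545_at, -0.10 to 0.11 for Cflar 1379919_at, -0.18 to 0.01 for Fadd and -0.37 to 0.24 for Fas 1397221_s_at. In epithelium they were -0.09 to 0.30 for Bcl2l1 1369180_at, -0.23 to 0.14 for Bid, -0.51 to 0.08 for Cflar 1379919_at, -0.06 to 0.01 for Fadd, -0.44 to 0.41 for Fas 1397221_s_at and -0.02 to 0.14 for Tnfrsf1a. The difference ran from -0.24 to 0.27 for Bcl2l1 1369180_at, -0.41 to 0.06 for Bcl2l1 1370485_a_at, -0.08 to 0.52 for Cflar 1379919_at, -0.16 to 0.04 for Fadd, -0.16 to 0.31 for Fas 1384842_s_at and -0.48 to 0.37 for Fas 1397221_s_at. Between preparations the control lineage gave -0.06 to 0.61 for Bid, -0.04 to 0.16 for Casp8 1380297_at, -0.25 to 0.22 for Fas 1384842_s_at and -0.14 to 0.71 for Fas 1397221_s_at. The vinclozolin lineage gave -0.18 to 0.33 for Bcl2l1 1369180_at, -0.24 to 0.12 for Casp8 1369262_at and -0.07 to 0.12 for Fadd. Dffb, from the list of caspase substrates and not a member, gave -0.38 to 0.03 in the control lineage.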
